A study of Mus musculus with 16 samples.

Results

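Antigen signals in B cells pass through a small set of kinases, lipid enzymes and phosphatases, and 10 of their genes are described here in leukemias of Pax5+/- mice: Syk, Blk, Btk, Plcg2, Prkcb, Vav1, Pik3cd, Rasgrp3, Inpp5d and Ptpn6. Each was read from the probe set annotated to that gene alone, or from the one with the highest mean where a gene had several. All 10 had 1 such probe set, and they were 10 of 19938 genes measured. None of these probe sets is annotated to a second gene.

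The leukemia samples were leukemic total bone marrow of 6 mice with 1 intact copy of both Bank1 and Pax5 (Bank1+/- + Pax5+/-, here the Bank1/Pax5 leukemia) and of 6 mice with 1 intact copy of Pax5 (Pax5+/-, here the Pax5 leukemia). The WT samples were pro-B and pre-B cells of bone marrow on 4 arrays. Both leukemias share the Pax5 heterozygosity, so they differ in the labelled genotype by Bank1, an adaptor protein of B cell receptor signalling. The mice lived in a conventional facility and met common pathogens, and total RNA was read on oligonucleotide arrays. No age, sex or strain is given. The design text speaks of 3 WT mice, whereas 4 WT arrays are labelled. One label field calls the WT cells leukemic, while every other field gives normal precursors. The mean of 3 Y-linked genes was 4.83 to 4.85 on the WT arrays but higher on most arrays of each leukemia. By this measure the groups also differ in sex. Whole marrow and a B precursor fraction are different starting materials. Genotype, disease, sex and cell composition therefore cannot be told apart in a comparison with WT. The leukemias differed in marker levels too, with overlapping ranges. The median level of B precursor markers was 10.02 in Bank1/Pax5 and 11.68 in Pax5 leukemias. For markers of other blood cells it was 8.71 and 7.72. Genotype and cell composition thus cannot be told apart between the leukemias. In such bulk samples, fewer cells of a type and less RNA per cell cannot be told apart either.

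When antigen, or the pre-B cell receptor in a precursor, engages the signalling chains Cd79a and Cd79b, Src family kinases such as Blk phosphorylate them and the kinase Syk docks on the phosphorylated sites. Syk and the kinase Btk then activate phospholipase C gamma 2, the product of Plcg2, which releases a calcium signal and diacylglycerol. Diacylglycerol recruits protein kinase C beta (Prkcb), which leads to NF-kappaB, and Rasgrp3, which loads Ras with GTP. Vav1 loads Rac, and Pik3cd encodes the leukocyte catalytic subunit of phosphoinositide 3-kinase, whose lipid product anchors Btk at the membrane. Inpp5d (SHIP-1) removes a phosphate from that lipid, and Ptpn6 (SHP-1) removes phosphates from tyrosines, so both act as brakes. Pre-B cells depend on signals from the pre-B cell receptor for expansion and for survival.

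Levels are log2 values, so a difference of 1 is a doubling. Arrays of 1 group correlated at 0.944 to 0.987 among Bank1/Pax5 leukemias, 0.968 to 0.982 among Pax5 leukemias and 0.992 to 0.995 among WT. The median level of 11 B precursor markers on an array ran from 7.58 to 11.76 in Bank1/Pax5 leukemias and from 7.71 to 12.28 in Pax5 leukemias, against 12.52 to 12.63 in WT. The median of 11 monocyte and macrophage markers ran from 9.06 to 11.67 in Bank1/Pax5 leukemias and from 8.50 to 10.20 in Pax5 leukemias, against 6.66 to 6.78 in WT, where 7 of the 11 lay below the median of all named probe sets (7.01). The median of 6 megakaryocyte markers ran from 9.35 to 11.76 in Bank1/Pax5 leukemias and from 8.63 to 11.31 in Pax5 leukemias, against 7.03 to 7.23 in WT, and 5 of 6 were called higher in each leukemia. The median of 10 NK cell markers ran from 5.75 to 8.08 in Bank1/Pax5 leukemias and from 5.50 to 5.69 in Pax5 leukemias, against 7.72 to 8.82 in WT, and 5 and 7 of the 10 were called lower. In WT 9 of these 10 lay above the median of named probe sets. Among all genes 6.8% were called higher and 12.8% lower in Bank1/Pax5 leukemias, and 9.53% higher and 13.8% lower in Pax5 leukemias. Bank1 itself averaged 8.63 ± 0.78 in Bank1/Pax5 leukemias (SD, n = 6), 10.18 ± 0.79 in Pax5 leukemias (SD, n = 6) and 9.17 ± 0.12 in WT (SD, n = 4). By limma's moderated test its difference between the leukemias was -1.54 (adjusted p = 0.0815), with overlapping arrays. Against WT it was -0.53 in Bank1/Pax5 leukemias (adjusted p = 0.404) and 1.01 in Pax5 leukemias (adjusted p = 0.0964). No Bank1 difference passed at an adjusted p under 0.05.

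Syk and Prkcb were lower in both leukemias than in WT precursors, Btk was lower in Bank1/Pax5 leukemias, and Plcg2 was higher in Pax5 leukemias. Of the 10 genes, 0 were higher and 3 lower in Bank1/Pax5 leukemias than in WT at an adjusted p under 0.05 (limma's moderated test, Benjamini-Hochberg over all genes), where 19.6% of all genes passed, 6.8% higher and 12.8% lower. In Pax5 leukemias against WT, 1 was higher and 2 were lower, where 23.3% of all genes passed, 9.53% higher and 13.8% lower. Between the leukemias 0 of 10 passed, where 2.24% of all genes did, 0.436% higher and 1.8% lower. At an unadjusted p under 0.05, 5, 3 and 3 of the 10 genes passed in these comparisons in the order given, where 32.9%, 37.5% and 18.6% of all genes did. Counted by groups whose arrays do not overlap, 0 of the 10 genes lay above and 3 below WT in Bank1/Pax5 leukemias, where 19.6% of all genes did so (7.35% above, 12.3% below). In Pax5 leukemias 1 lay above and 2 below WT, where 24.8% of all genes did so (11.6% above, 13.2% below). Between the leukemias 0 of the 10 genes separated, where 2.7% of all genes did (0.833% above, 1.87% below). Counts of 3 of 10 are near these backgrounds and single out no property of the set. The median difference of the 10 genes was -0.33 for Bank1/Pax5 leukemia minus WT (all genes -0.03), -0.11 for Pax5 leukemia minus WT (all genes -0.05) and -0.29 for Bank1/Pax5 minus Pax5 leukemia (all genes 0.02). The 2 comparisons with WT share the 4 WT arrays.

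**Figure D1:**
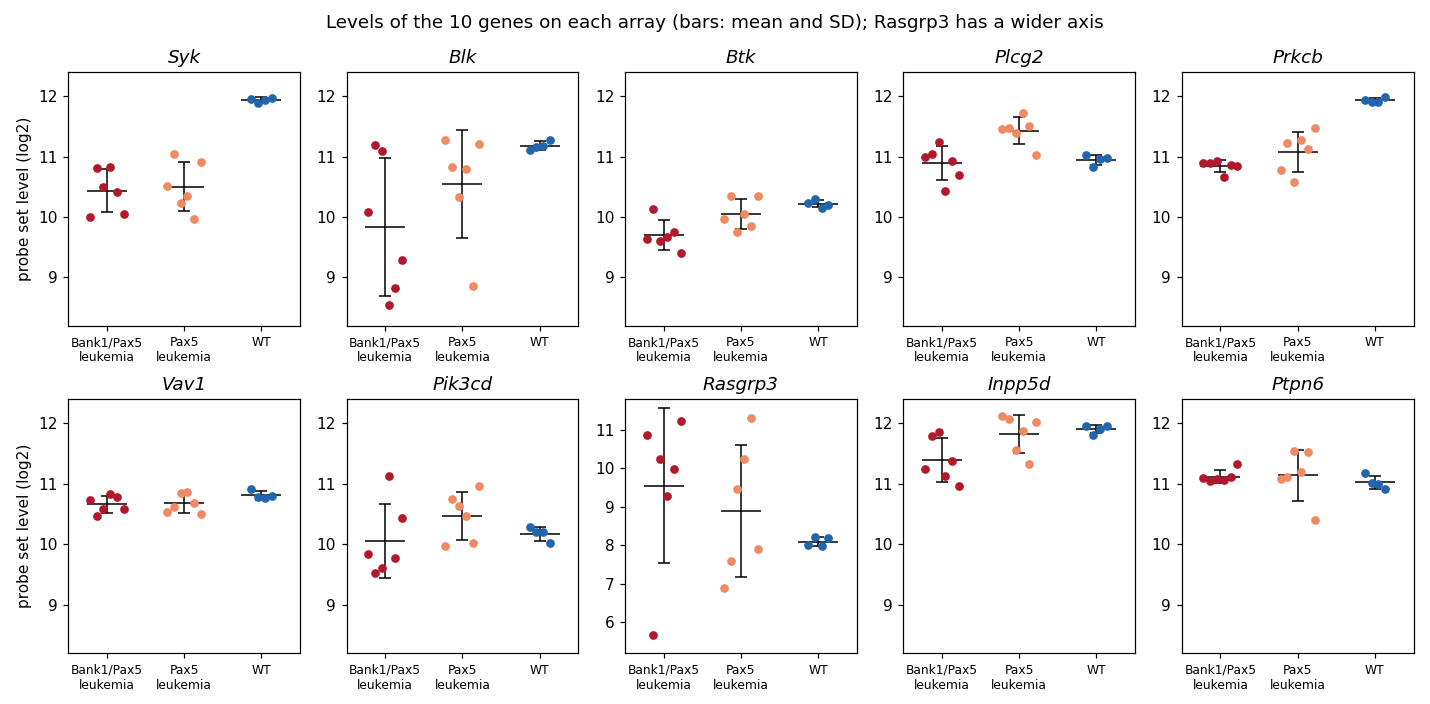
Level of each of the 10 genes on each array (log2, y axis) in Bank1/Pax5 leukemia (n = 6), Pax5 leukemia (n = 6) and WT (n = 4); each point is 1 array, and the bars give the mean and the SD. Syk and Prkcb lie below the WT arrays on all 12 leukemia arrays, while Blk and Rasgrp3 spread over several log2 units among leukemias; Rasgrp3 has a wider axis.

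Among the kinases next to the receptor, Syk (chr13:52582610-52648792 in GRCm38.p6, the assembly of the gene table; no build is stated for the arrays) showed the clearest separation. Its lowest, median and highest levels were 10.001, 10.45 and 10.83 in Bank1/Pax5 leukemias and 9.97, 10.43 and 11.04 in Pax5 leukemias. The 4 WT arrays read 11.96, 11.88, 11.94 and 11.97. Every leukemia array thus lay below every WT array, a lack of overlap that 12.3% of all genes showed downwards in Bank1/Pax5 leukemias and 13.2% in Pax5 leukemias. Syk was 2.83-fold lower in Bank1/Pax5 leukemias than in WT (log2 difference -1.502, SE 0.21, adjusted p = 0.000165) and 2.71-fold lower in Pax5 leukemias (-1.44, SE 0.21, adjusted p = 0.000218). The leukemias themselves differed by -0.07 (95% confidence interval -0.52 to 0.39, adjusted p = 0.888). Syk kept both calls against WT under each of 22 other settings.

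The sequence around the first of 2 annotated Syk start sites is shown because this gene was lower on all leukemia arrays (RefSeq, GRCm38.p6, chr13:52583187-52583486, plus strand, 250 bases before to 50 after the start, GC 72.0%). Capitals mark the reverse complement of CAGGTG, an E box of the E2A type, at position -200 from the start.
Syk: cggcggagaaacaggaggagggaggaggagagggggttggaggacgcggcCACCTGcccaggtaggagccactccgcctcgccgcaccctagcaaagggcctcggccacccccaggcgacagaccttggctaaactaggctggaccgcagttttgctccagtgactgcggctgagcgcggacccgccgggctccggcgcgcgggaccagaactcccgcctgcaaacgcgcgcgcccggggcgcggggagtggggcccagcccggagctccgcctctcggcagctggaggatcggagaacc

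Motifs were searched on both strands in the 13 windows of the 9 genes found in the promoter table. AGGAAGT (ETS type) occurred in windows of 4 genes, CAGGTG in 5 and GGGCGG (GC box) in 5, while a palindromic motif of EBF type and AACCACA (RUNX type) occurred in 0. Over all 32851 windows of the table, 9.35% held AGGAAGT, 20.2% CAGGTG, 35.7% GGGCGG, 0.904% the EBF type motif and 5.27% AACCACA. The counts are of genes, some with several windows, and the shares are of windows, so they do not compare directly. These matches describe letters in the windows and are not binding sites.

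Blk (chr14:63372837-63417187), the Src family kinase that is largely restricted to B lineage cells, varied most among the 3 kinases. Its lowest, median and highest levels were 8.54, 9.68 and 11.19 in Bank1/Pax5 leukemias and 8.85, 10.81 and 11.27 in Pax5 leukemias. The WT arrays read 11.10, 11.16, 11.17 and 11.28. Some leukemias therefore had WT levels and others fell short by over 2 log2 units. The mean difference was -1.34 in Bank1/Pax5 leukemias (SE 0.55, 95% confidence interval -2.52 to -0.17, adjusted p = 0.101) and -0.63 in Pax5 leukemias (-1.80 to 0.54, adjusted p = 0.425), and neither passed. Without Bank1/Pax5 array 2, which had the highest Blk level of its group, the first became -1.61 (adjusted p = 0.0402), and with array weights it was -1.22 (adjusted p = 0.0355). Between the leukemias the difference was -0.71 (-1.92 to 0.50, adjusted p = 0.515). Its SD exceeded that of 97.4% of all genes in Bank1/Pax5 leukemias and 96.9% in Pax5 leukemias, against 40.6% in WT.

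Btk (chrX:134542334-134583628), the Tec family kinase mutated in X-linked immunodeficiency, had lowest, median and highest levels of 9.40, 9.66 and 10.13 in Bank1/Pax5 leukemias and of 9.76, 10.01 and 10.35 in Pax5 leukemias. The WT arrays read 10.23, 10.30, 10.15 and 10.20. All Bank1/Pax5 arrays lay below WT, the highest of them (10.13) only just, whereas the Pax5 arrays overlapped it. Btk was 1.43-fold lower in Bank1/Pax5 leukemias than in WT (-0.52, SE 0.13, adjusted p = 0.0140), and differed by -0.17 in Pax5 leukemias (-0.46 to 0.12, adjusted p = 0.380). Between the leukemias it differed by -0.35 (-0.64 to -0.06, adjusted p = 0.191), so the genotypes were not shown to differ in Btk. The mean of 3 Y-linked genes was 8.46 or higher on 4 of 6 Bank1/Pax5 arrays and on 5 of 6 Pax5 arrays, and between 4.83 and 4.85 on the WT arrays. With that mean as a covariate Btk was at -0.42 (adjusted p = 0.0978), and with the mean of markers of other blood cells as a covariate at -0.42 (adjusted p = 0.177).

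**Figure D2:**
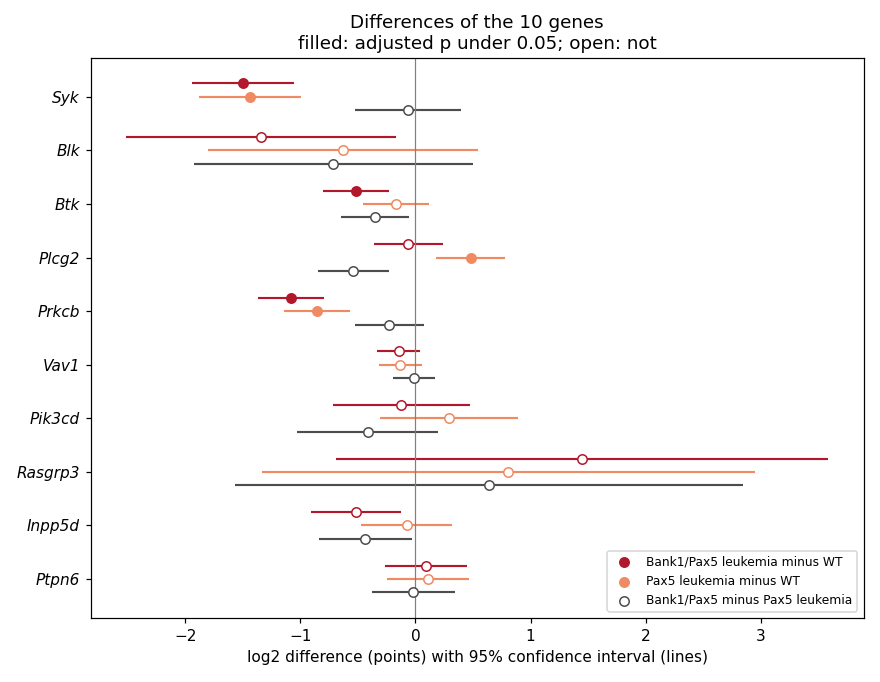
Log2 difference (x axis) of each of the 10 genes (y axis) for both leukemias relative to WT, and for Bank1/Pax5 relative to Pax5 leukemia; points are estimates, lines 95% confidence intervals, and filled points have an adjusted p under 0.05. The filled points are Syk and Prkcb in both comparisons with WT, Btk in Bank1/Pax5 leukemia and Plcg2 in Pax5 leukemia.

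Downstream of the kinases, Plcg2 (chr8:117498275-117635142) was the one of the 10 genes called higher. Its lowest, median and highest levels were 10.43, 10.95 and 11.25 in Bank1/Pax5 leukemias and 11.03, 11.47 and 11.71 in Pax5 leukemias. WT levels were 11.02, 10.83, 10.97 and 10.98. The Pax5 arrays lay above all WT arrays, the lowest of them by 0.01, and the Bank1/Pax5 arrays lay on both sides of WT. Plcg2 was 1.39-fold higher in Pax5 leukemias than in WT (0.48, SE 0.14, adjusted p = 0.0240) and differed by -0.06 in Bank1/Pax5 leukemias (-0.36 to 0.24, adjusted p = 0.798). The Pax5 call did not pass without WT array 2 (adjusted p = 0.0659), WT array 3 (0.0540) or WT array 4 (0.0559), nor without 3 leukemia arrays whose Pax5 level was below 9 (0.0528). The direct difference between the leukemias was -0.54 (SE 0.14, 95% confidence interval -0.85 to -0.23, adjusted p = 0.0708) and did not pass. It passed with the WT arrays in the fit (adjusted p = 0.0220) and without Bank1/Pax5 array 3 (-0.61, adjusted p = 0.0479).

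Prkcb (chr7:122289104-122634402), the protein kinase C isoform that links the receptor to NF-kappaB, was lower in both leukemias. Its lowest, median and highest levels were 10.65, 10.87 and 10.93 in Bank1/Pax5 leukemias and 10.57, 11.17 and 11.48 in Pax5 leukemias. WT levels were 11.94, 11.90, 11.90 and 11.98. No leukemia array reached the WT range, and the Bank1/Pax5 arrays were close together, with an SD of 0.098 against a median SD over all genes of 0.180. Prkcb was 2.12-fold lower in Bank1/Pax5 leukemias than in WT (-1.08, SE 0.14, adjusted p = 7.35e-05) and 1.81-fold lower in Pax5 leukemias (-0.86, SE 0.14, adjusted p = 0.000429). Both calls held under each of 22 other settings. Between the leukemias the difference was -0.23 (-0.52 to 0.07, adjusted p = 0.395).

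The promoter window of Prkcb is shown as that of the other gene called in both leukemias (RefSeq, GRCm38.p6, chr7:122288875-122289174, plus strand, GC 65.3%). Capitals mark GGGCGG, a GC box, at position -88 from the start, which 35.7% of all windows hold.
Prkcb: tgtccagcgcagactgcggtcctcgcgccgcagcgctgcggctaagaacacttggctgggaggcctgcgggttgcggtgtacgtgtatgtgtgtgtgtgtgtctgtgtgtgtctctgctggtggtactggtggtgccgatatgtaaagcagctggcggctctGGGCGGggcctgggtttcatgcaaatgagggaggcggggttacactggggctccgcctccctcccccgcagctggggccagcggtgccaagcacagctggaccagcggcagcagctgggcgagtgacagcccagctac

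Vav1 (chr17:57279100-57329236), the guanine nucleotide exchange factor for Rac in blood cells, stayed within a narrow band. Its lowest, median and highest levels were 10.47, 10.66 and 10.83 in Bank1/Pax5 leukemias and 10.49, 10.65 and 10.87 in Pax5 leukemias, against 10.76, 10.78 and 10.91 in WT. The groups overlapped. The differences were -0.15 in Bank1/Pax5 leukemias (-0.33 to 0.04, adjusted p = 0.264) and -0.13 in Pax5 leukemias (-0.32 to 0.05, adjusted p = 0.283) relative to WT. Between the leukemias the difference was -0.013 (-0.20 to 0.17, adjusted p = 0.948).

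Pik3cd (chr4:149649168-149702566) had lowest, median and highest levels of 9.52, 9.81 and 11.12 in Bank1/Pax5 leukemias and of 9.97, 10.54 and 10.96 in Pax5 leukemias. WT levels were 10.28, 10.20, 10.20 and 10.02. Of the Bank1/Pax5 arrays 4 lay below and 2 above the WT range, and of the Pax5 arrays 1 lay below and 4 above it. It differed from WT by -0.12 in Bank1/Pax5 leukemias (-0.72 to 0.48, adjusted p = 0.795) and by 0.29 in Pax5 leukemias (-0.30 to 0.89, adjusted p = 0.470). The difference between the leukemias was -0.42 (-1.03 to 0.20, adjusted p = 0.451).

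Rasgrp3 (chr17:75435870-75529054), the exchange factor that couples diacylglycerol to Ras in B cells, had the widest range of the 10 genes. The 6 Bank1/Pax5 leukemias read 10.86, 5.67, 10.24, 9.27, 9.99 and 11.22, and the 6 Pax5 leukemias read 6.90, 7.59, 9.47, 10.24, 11.32 and 7.89. On the WT arrays it read 7.996, 8.21, 7.98 and 8.19. Hence 5 Bank1/Pax5 and 3 Pax5 leukemias lay above the WT range, and 1 and 3 lay below it. The lowest values, 5.67 and 6.90, lie below the median of named probe sets (7.01), where signal and background are hard to separate, so the lower ends of these ranges are approximate. The range was 5.55 log2 units in Bank1/Pax5 leukemias and 4.42 in Pax5 leukemias, and the SDs of 2.02 and 1.72 exceeded those of 99.8% and 99.6% of all genes. In WT the SD was 0.13, above that of 74.2% of genes. With such spread the mean differences from WT did not pass: 1.45 in Bank1/Pax5 leukemias (-0.69 to 3.59, adjusted p = 0.337) and 0.81 in Pax5 leukemias (-1.33 to 2.95, adjusted p = 0.586). Without Bank1/Pax5 array 2, the one at 5.67, the first became 2.22 (adjusted p = 0.0474). Between the leukemias the difference was 0.64 (-1.56 to 2.85, adjusted p = 0.762).

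The first of 2 promoter windows of Rasgrp3 is shown for its range (RefSeq, GRCm38.p6, chr17:75435655-75435954, plus strand, GC 48.3%). Capitals mark AGGAAGT, an ETS type motif, at position -49 from the start, which 9.35% of all windows hold.
Rasgrp3: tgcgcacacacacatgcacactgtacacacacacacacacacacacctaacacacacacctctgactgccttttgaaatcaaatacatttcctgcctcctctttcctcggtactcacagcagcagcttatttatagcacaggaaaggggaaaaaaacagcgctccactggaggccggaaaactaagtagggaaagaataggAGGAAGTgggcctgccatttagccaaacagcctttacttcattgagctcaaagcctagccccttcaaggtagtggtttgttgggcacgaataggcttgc

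The 2 phosphatases were high in all groups. Inpp5d (chr1:87620312-87720510) had lowest, median and highest levels of 10.97, 11.30 and 11.86 in Bank1/Pax5 leukemias and of 11.33, 11.95 and 12.12 in Pax5 leukemias. The WT arrays read 11.96, 11.81, 11.90 and 11.96. Of the Bank1/Pax5 arrays 5 were below WT, with the highest inside its range, and the Pax5 arrays lay on both sides. The difference from WT was -0.52 in Bank1/Pax5 leukemias (SE 0.18, 95% confidence interval -0.91 to -0.12, adjusted p = 0.0633) and -0.08 in Pax5 leukemias (-0.47 to 0.32, adjusted p = 0.786), and neither passed. Inpp5d in Bank1/Pax5 leukemias passed when array 2 was left out (-0.60, adjusted p = 0.0304), when array 3 was left out (-0.61, adjusted p = 0.0255), when arrays were weighted (adjusted p = 0.0135) and when dim probe sets were left out (adjusted p = 0.0432). Between the leukemias the difference was -0.44 (-0.84 to -0.03, adjusted p = 0.231).

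Ptpn6 (chr6:124720707-124738709) had lowest, median and highest levels of 11.05, 11.08 and 11.33 in Bank1/Pax5 leukemias and of 10.40, 11.15 and 11.53 in Pax5 leukemias. On the WT arrays it read 11.18, 11.02, 11.004 and 10.92. All 3 groups overlapped. It differed from WT by 0.09 in Bank1/Pax5 leukemias (-0.27 to 0.45, adjusted p = 0.740) and by 0.11 in Pax5 leukemias (-0.25 to 0.47, adjusted p = 0.663), and between the leukemias by -0.018 (-0.38 to 0.34, adjusted p = 0.962).

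The other genes of the pathway place these values in context. Of 67 listed genes, 55 were measured and the rest were not analysed here. In Bank1/Pax5 leukemias 1 was higher and 18 were lower than in WT, with a median difference of -0.27, where 6.8% of all genes were higher and 12.8% lower, with a median of -0.03. In Pax5 leukemias 3 were higher and 13 were lower, with a median of -0.16, where 9.53% of all genes were higher and 13.8% lower, with a median of -0.05. Between the leukemias 0 were higher and 1 was lower, with a median of -0.11, where 2.24% of all genes passed, with a median of 0.02. Calls over all genes leaned lower as well, with 34.8% of them higher in Bank1/Pax5 leukemias and 40.8% in Pax5 leukemias, but 51.8% and 51.9% with cyclic loess. With cyclic loess 2 pathway genes were higher and 15 lower in Bank1/Pax5 leukemias, and 3 were higher and 15 lower in Pax5 leukemias.

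At the receptor, 9 genes were measured, of which 0 were higher and 2 lower in Bank1/Pax5 leukemias, and 1 was higher and 1 lower in Pax5 leukemias. Among all genes 6.8% were higher and 12.8% lower in Bank1/Pax5 leukemias, and 9.53% higher and 13.8% lower in Pax5 leukemias. Cd79b, a signalling chain of the receptor, averaged 12.06 in Bank1/Pax5 leukemias against 13.34 in WT (-1.28, SE 0.30, adjusted p = 0.00672). Cd72, an inhibitory coreceptor that recruits Ptpn6, averaged 9.33 in Bank1/Pax5 leukemias and 7.68 in Pax5 leukemias against 12.02 in WT (-2.69, adjusted p = 0.0231, and -4.34, adjusted p = 0.00102). Cd81, a tetraspanin of the cell surface, averaged 12.20 in Pax5 leukemias against 11.34 in WT (0.86, adjusted p = 0.00337).

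Among 8 Src kinases and their regulators, 0 were higher and 2 lower in each leukemia. The shares over all genes were 6.8% higher and 12.8% lower in Bank1/Pax5 leukemias, and 9.53% and 13.8% in Pax5 leukemias. Csk, the kinase that inactivates Src family kinases, averaged 10.48 in Bank1/Pax5 leukemias, 10.99 in Pax5 leukemias and 11.33 in WT. It was lower in Bank1/Pax5 leukemias (-0.85, adjusted p = 5.72e-05) and in Pax5 leukemias (-0.34, adjusted p = 0.0275) than in WT. It was also the pathway gene that passed between the leukemias (-0.51, SE 0.10, adjusted p = 0.0321). No pathway gene passed between the leukemias with median centring, the variance trend, a minimum fold or the non-B covariate, without the low Pax5 arrays, or without Bank1/Pax5 array 1, 4, 5 or 6 or Pax5 array 2, 4, 5 or 6. Cblb, a ubiquitin ligase that limits receptor signalling, was lower in Bank1/Pax5 leukemias (-0.92, adjusted p = 0.00547) and in Pax5 leukemias (-0.71, adjusted p = 0.0214).

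Among 13 adaptors, 1 was higher and 2 lower in Bank1/Pax5 leukemias, and 2 were higher and 3 lower in Pax5 leukemias. The shares over all genes were 6.8% higher and 12.8% lower in Bank1/Pax5 leukemias, and 9.53% and 13.8% in Pax5 leukemias. Pik3ap1, which brings phosphoinositide 3-kinase to the receptor, was at -1.60 (adjusted p = 0.000269) in Bank1/Pax5 leukemias and -1.74 (adjusted p = 0.000121) in Pax5 leukemias. Dok3, an inhibitory adaptor that binds Inpp5d, was at -2.07 (adjusted p = 0.00714) and -1.83 (adjusted p = 0.0131). Lat2, a membrane scaffold that is also used in mast and myeloid cells, was the one higher in both, at 1.27 (adjusted p = 0.00432) in Bank1/Pax5 leukemias and 1.26 (adjusted p = 0.00420) in Pax5 leukemias. Monocyte and macrophage markers also differed from WT, with 8 of 11 higher in Bank1/Pax5 leukemias and 6 of 11 in Pax5 leukemias. So did megakaryocyte markers, with 5 of 6 higher in each. Over all genes 6.8% and 9.53% were higher. Between the leukemias Lat2 differed by 0.02 and the monocyte and macrophage markers by a median of 0.67. The part of these cell types in the Lat2 result was not tested.

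Of 13 lipid and calcium genes, 0 were higher and 7 lower in Bank1/Pax5 leukemias, and 0 were higher and 4 lower in Pax5 leukemias. Among all genes 6.8% were higher and 12.8% lower in Bank1/Pax5 leukemias, and 9.53% higher and 13.8% lower in Pax5 leukemias. Pdpk1, the kinase that activates Akt, was at -0.61 (adjusted p = 9.70e-06) in Bank1/Pax5 leukemias and -0.44 (adjusted p = 0.000121) in Pax5 leukemias. Akt2 was at -0.43 (adjusted p = 0.000388) and -0.49 (adjusted p = 0.000118). Itpr2, an inositol trisphosphate receptor that releases calcium downstream of Plcg2, was at -0.88 (adjusted p = 0.000387) and -0.77 (adjusted p = 0.000994).

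Of 12 genes further downstream, 0 were higher and 5 lower in Bank1/Pax5 leukemias, and 0 were higher and 3 lower in Pax5 leukemias. The shares over all genes were 6.8% higher and 12.8% lower in Bank1/Pax5 leukemias, and 9.53% and 13.8% in Pax5 leukemias. Nfatc3, a calcium-regulated transcription factor, was at -0.90 (adjusted p = 0.000361) in Bank1/Pax5 leukemias and -0.41 (adjusted p = 0.0413) in Pax5 leukemias. Ppp3cb, a catalytic subunit of the calcineurin that activates NFAT, was at -0.55 (adjusted p = 0.000842) and -0.42 (adjusted p = 0.00529). Rac2, the GTPase that Vav1 loads, was at -0.66 in Bank1/Pax5 leukemias (adjusted p = 0.00453), and Bcl10, which acts after Prkcb towards NF-kappaB, was at -0.42 in Bank1/Pax5 leukemias (adjusted p = 0.0248) and -0.51 in Pax5 leukemias (adjusted p = 0.00727).

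**Figure D3:**
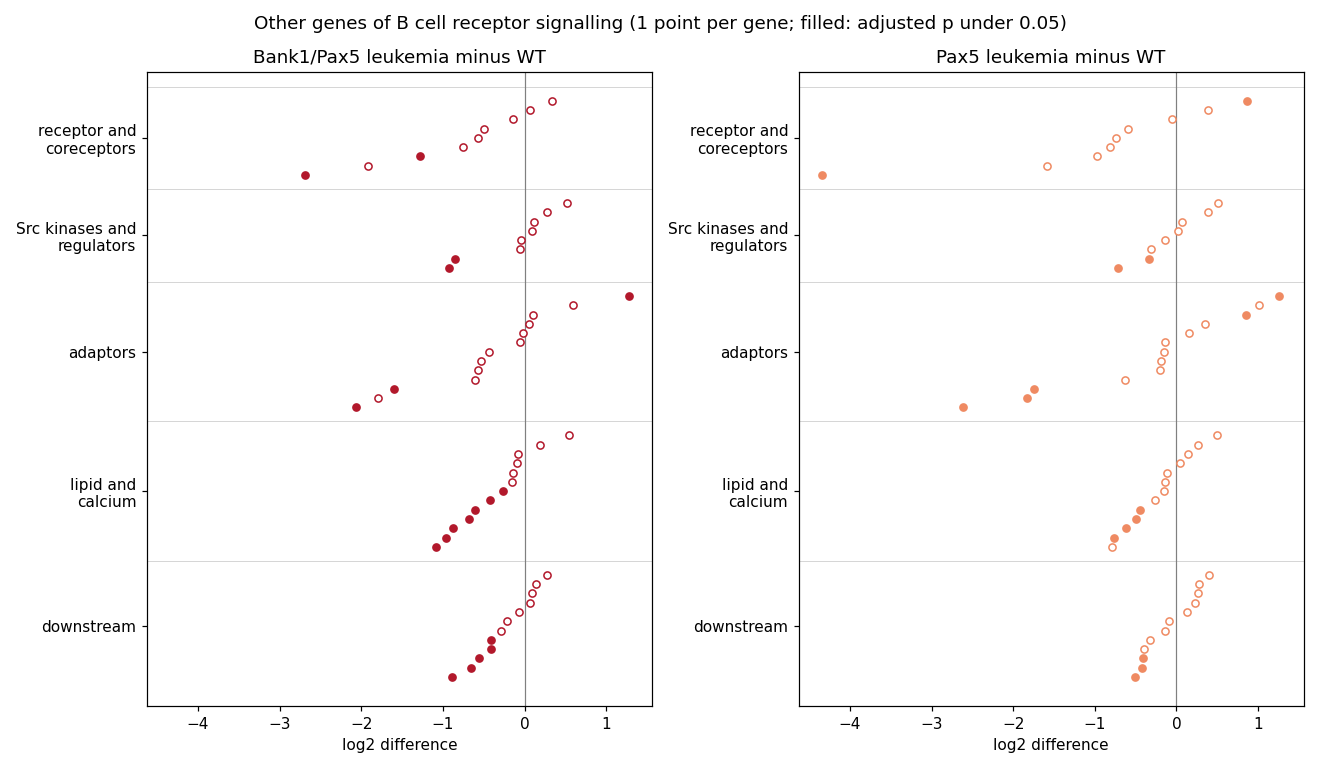
Log2 difference from WT (x axis) of 55 other genes of B cell receptor signalling, 1 point per gene, sorted within 5 groups (y axis), for Bank1/Pax5 leukemia (left) and Pax5 leukemia (right); filled points have an adjusted p under 0.05. Filled points lie mostly left of 0, with 18 lower and 1 higher in Bank1/Pax5 leukemia and 13 lower and 3 higher in Pax5 leukemia; over all genes 2543 were lower and 1356 higher in Bank1/Pax5 leukemia, and 2754 lower and 1901 higher in Pax5 leukemia.

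Close relatives of the 10 genes share their enzyme activities. Of 22 listed paralogs 20 were measured, of which 1 was higher and 5 were lower in each leukemia against WT, and 0 passed between the leukemias. Over all genes 6.8% were higher and 12.8% lower in Bank1/Pax5 leukemias, and 9.53% higher and 13.8% lower in Pax5 leukemias. Rasgrp1, a relative of Rasgrp3 that was named after its values were seen, averaged 8.27 in Bank1/Pax5 leukemias and 9.25 in Pax5 leukemias against 10.97 in WT. It was lower in Bank1/Pax5 leukemias (-2.70, SE 0.81, adjusted p = 0.0293), and its difference of -1.72 in Pax5 leukemias did not pass (adjusted p = 0.133). Zap70, the relative of Syk in T and NK cells, lay below the median of named probe sets in all 3 groups. Among relatives of Prkcb, Prkce was lower in Bank1/Pax5 leukemias (-1.52, adjusted p = 0.00577) and in Pax5 leukemias (-1.05, adjusted p = 0.0374). Vav2 was lower in Bank1/Pax5 leukemias (-0.93, adjusted p = 0.000147) and in Pax5 leukemias (-0.52, adjusted p = 0.00814), and Vav3 was higher in Bank1/Pax5 leukemias (0.69, adjusted p = 0.0260) and in Pax5 leukemias (0.80, adjusted p = 0.0105). Among relatives of Pik3cd, Pik3ca was lower in Bank1/Pax5 leukemias (-0.82, adjusted p = 5.72e-05) and in Pax5 leukemias (-0.75, adjusted p = 0.000103), and Pik3cg was lower in Bank1/Pax5 leukemias (-0.68, adjusted p = 0.0152) and in Pax5 leukemias (-0.62, adjusted p = 0.0217). Txk, a Tec family relative of Btk in T cells, was lower in Pax5 leukemias (-1.36, adjusted p = 0.00226), but there it lay below the median of named probe sets.

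Within the leukemias, the 10 genes did not all move together. Over the 12 leukemia arrays with group means subtracted, 24 of the 45 pairs correlated positively and 21 negatively, with a median r of 0.0028. Array pairs of this kind also share their cell composition, so the values are a description. The strongest pair was Blk and Inpp5d (r = 0.87, rho = 0.80), with r = 0.82 in Bank1/Pax5 leukemias and 0.93 in Pax5 leukemias, and 0.80 without the 2 farthest arrays. The farthest arrays were chosen by the level of the first gene named in each pair only. Syk and Btk also went together (r = 0.80, rho = 0.66, and 0.75 without the 2 farthest arrays). Syk and Rasgrp3 ran in opposite directions (r = -0.77, rho = -0.80, and -0.71 without the 2 farthest arrays). For this pair the arrays left out did not include Bank1/Pax5 array 2, where Rasgrp3 read 5.67. Plcg2 and Pik3cd also ran in opposite directions (r = -0.81, rho = -0.69), but without the 2 farthest arrays r was -0.53.

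**Figure D4:**
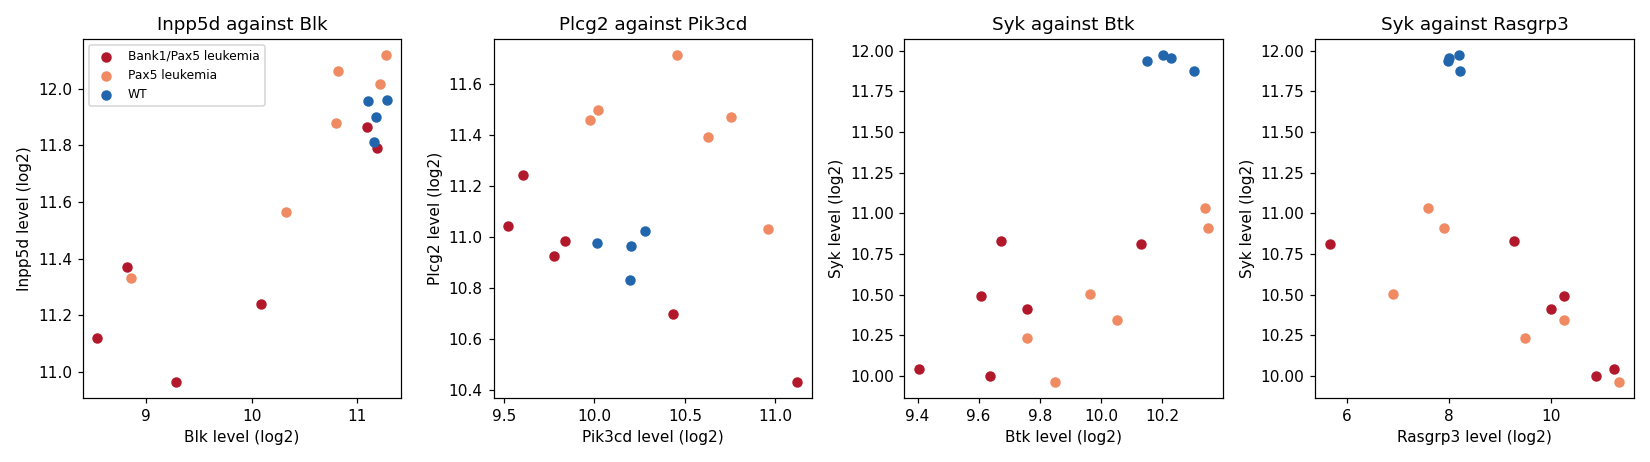
Level of 1 gene against another (log2 on both axes) on each array for the 4 pairs with the largest correlation in size; each point is 1 array, coloured by group, with WT shown for reference. Inpp5d is high where Blk is high, and Syk is low where Rasgrp3 is high, among the arrays of both leukemias.

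The B precursor markers also varied between leukemias, and some of the 10 genes went with them. Over the same 12 arrays the median of the B precursor list correlated with Inpp5d at 0.93, Blk at 0.88, Btk at 0.67 and Syk at 0.53. It correlated with Prkcb at 0.47 and Plcg2 at 0.39, and with Ptpn6 at -0.64, Rasgrp3 at -0.60, Vav1 at -0.58 and Pik3cd at -0.34. The mean of the non-B lists correlated with Inpp5d and with Blk at -0.64, Plcg2 at -0.54, Syk at -0.28, Btk at -0.25 and Prkcb at -0.13. Its r was 0.52 with Vav1, 0.42 with Rasgrp3, 0.40 with Pik3cd and 0.011 with Ptpn6. In a fit added after seeing the data, with the mean of the non-B lists as a covariate, the differences of Bank1/Pax5 leukemias from WT were -1.31 for Syk, -1.03 for Prkcb, -0.21 for Blk, -0.14 for Inpp5d and 0.098 for Rasgrp3. The adjusted p-values were 0.00799, 0.00311, 0.890, 0.762 and 0.979 in the same order. The covariate differs between the groups, so this fit cannot tell cell composition and genotype apart, and the part of cell composition in these results was not tested.

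The gene most like each member was found over 16 arrays with group means subtracted, among 9856 genes at or above the median level. Tgfbr2 was most like Syk (r = 0.91), Vpreb2 most like Blk (0.92) and Snord15a most like Btk (0.90). Slc25a3 was most like Plcg2 (0.90), Fabp5 most like Prkcb (0.86), Gss most like Vav1 (0.92) and Arfgap3 most like Pik3cd (0.93). Ifitm1 was most like Rasgrp3 (0.95), Rsph9 most like Inpp5d (0.94) and Gaa most like Ptpn6 (0.89). Vpreb2, the gene most like Blk, encodes a surrogate light chain component of the pre-B cell receptor. Each gene named here had the highest of 9856 correlations, and some second genes were close. For Syk the second was Dgka (0.9095 against 0.9103), and for Inpp5d it was Vpreb3 (0.9326 against 0.9354). The top ranks are therefore a description.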

How the data were processed

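Levels came from the authors' deposited table of log2 values for 35556 probe sets on 16 arrays, summarised with RMA in oligo, per the submitters' processing notes, which give no versions. The scale is log2, as the values' range shows. Of the probe sets, 21789 were annotated to 1 gene, 1621 to several and 12146 to none, and 91 symbols had no current record. The probe set with the highest mean stood for each gene, giving 19938 genes. Array medians ran from 6.58 to 6.71, so no depth per sample applies and the number of arrays limits the precision.

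Groups were compared with limma 3.58.1 in R 4.3.3 (lmFit, eBayes, Benjamini-Hochberg over all genes, called under 0.05). Comparisons with WT used all 16 arrays with 1 mean per group. Bank1/Pax5 minus Pax5 leukemia used the 12 leukemia arrays, since these spread more than WT. The 10 genes and all lists were chosen with earlier results of these data known. Besides the 10 genes, the text names, per comparison, up to 3 called genes with the smallest p in each pathway group and up to 4 called paralogs, gives such a gene's value in the other leukemia too where called, and names the most similar gene of each of the 10. Zap70 and Rasgrp1 were named after their values were seen. The labels call the replicates biological. Other settings were filtering, probe set averaging, centring, loess, variance trend, array weights, a replicate block, a minimum fold, other sets of arrays, and, added after seeing the data, Y-linked and non-B covariates and leaving out the 3 leukemia arrays with low Pax5.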

Additional observations from a re-analysis of the deposited data

Results flagged for a closer look

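Of the 30 sets of 1 gene in 1 group, 3 held an array far from the others by Dixon's ratio, all in Bank1/Pax5 leukemias, where chance flags about 1 in 20 sets. Rasgrp3 read 5.67 on array 2, against 9.27 to 11.22 on the other 5. Prkcb read 10.65 on array 4, against a median of 10.87 and a highest value of 10.93. Ptpn6 read 11.33 on array 6, against a lowest value of 11.05 and a median of 11.08. The Prkcb and Ptpn6 arrays stood apart within groups whose SDs were only 0.098 and 0.104, so the distances are small in absolute terms, whereas the Rasgrp3 array lay more than 3 log2 units below the next.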

How the results depend on the processing

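Syk and Prkcb were lower than WT in both leukemias, and called, in 22 of 22 alternatives (highest adjusted p 0.00799 and 0.00311 for Bank1/Pax5, 0.0101 and 0.0150 for Pax5). Btk in Bank1/Pax5 leukemias was called in 19 of 22 and Plcg2 in Pax5 leukemias in 17 of 22. With a minimum 1.2-fold change Btk and Plcg2 did not pass (adjusted p = 0.293 and 0.456). Of the 10 genes, 5 were called for Bank1/Pax5 against WT with array weights and 3 to 6 when 1 array was left out, and for Pax5 against WT 2 to 3 when 1 array was left out. Between the leukemias 1 was called with all 16 arrays and 0 to 1 when 1 array was left out. Of the pathway genes, for Bank1/Pax5 against WT (19), 10 were called with a minimum fold, 11 with the Y-linked covariate, 9 with the non-B covariate and 15 to 21 when 1 array was left out. For Pax5 against WT (16), 31 were called with array weights, 7 with a minimum fold and 10 to 17 when 1 array was left out, the 10 being without WT array 1 or WT array 4. Between the leukemias (1), 0 were called with median centring, the variance trend, a minimum fold, the non-B covariate or without low Pax5 arrays, 2 with cyclic loess, 3 with array weights, 6 with all 16 arrays, and 0 to 2 when 1 array was left out.

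Small differences changed sign in some settings. Plcg2 in Bank1/Pax5 against WT was 0.0016 with cyclic loess, 0.0745 with the Y-linked and 0.18 with the non-B covariate, and -0.13 to 0.0301 when 1 array was left out. Inpp5d in Pax5 against WT was 0.21 with the Y-linked and 0.0471 with the non-B covariate, and -0.14 to 0.0216 when 1 array was left out. Between the leukemias Syk was 0.0301 with cyclic loess, 0.0676 with the non-B covariate and -0.17 to 0.0414 when 1 array was left out. Vav1 was 0.085 with cyclic loess and -0.0492 to 0.0258 when 1 array was left out. Ptpn6 was 0.0744 with cyclic loess, 0.0706 without low Pax5 arrays and -0.17 to 0.0612 when 1 array was left out. With the non-B covariate Blk was 0.0872 and Rasgrp3 was -0.32. None of these passed the test; the cause was not tested.

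Over all genes 3899, 4655 and 446 were called, but 6486, 8104 and 759 with array weights, 1244, 1373 and 4 with a minimum fold, and 1868 and 41 (Bank1/Pax5 against WT and between the leukemias) with the non-B covariate. Between the leukemias they were 265 with median centring, 185 with the variance trend, 1336 with all 16 arrays and 55 without low Pax5 arrays. Of called genes, 34.8% were higher in Bank1/Pax5 leukemias than in WT, but 51.8% with cyclic loess. In Pax5 leukemias 40.8% were higher, but 50.9% with median centring and 51.9% with cyclic loess. Between the leukemias 19.5% were higher, but 42.3% with cyclic loess. The replicate numbers gave no sign of pairing, since same-numbered arrays correlated at -0.38 to 0.32 with group means subtracted. Such values cannot exclude a pairing or a shared batch. With the replicate block, 3, 3 and 0 of the 10 genes and 18, 16 and 1 pathway genes were called.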
